A study of Mus musculus with 59 samples.

Results

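Fatty acid oxidation genes and targets of PPAR-alpha were followed across mouse tissues and cells exposed to inhibitors of ATP citrate lyase. The 37 genes were taken by symbol. All 37 were found in each of the 4 deposited tables, among 24972 rows per table. They comprise the receptor gene Ppara, 4 genes of the carnitine shuttle, 12 of the mitochondrial β-oxidation spiral, 3 of electron transfer, 4 of peroxisomal β-oxidation, 2 of microsomal ω-oxidation, 7 of fatty acid binding, activation, storage and thioester cleavage, and 4 other genes known as PPAR-alpha targets.

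PPAR-alpha is a nuclear receptor that binds fatty acids and, together with the retinoid X receptor, switches on genes for fat use, most strongly in fasted liver. Long-chain fatty acids are activated to acyl-CoA, carried into mitochondria as carnitine esters, and shortened in repeated turns of dehydrogenation, hydration, a second dehydrogenation and thiolysis. Their electrons pass through the electron transfer flavoprotein to the respiratory chain. Peroxisomes shorten very long chains, and microsomal P450 enzymes of the Cyp4a family oxidise the far end of the chain.

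In the muscle injury experiment, cardiotoxin (CTX, 10 µM), a snake toxin that kills myofibres, was injected into the left hind limb of wild-type C57BL/6 males on standard diet, aged 6 ± 1 months. Gastrocnemius was taken from mice injected and then given hydroxycitrate (CTX-HC) or injected only (CTX), at 2 or 30 days post injection (DPI), and from uninjected, untreated mice (Control), with 3 libraries per group. HC was given in the diet at 7.5 g/kg from injection to sacrifice, so 30 DPI differs from 2 DPI in length of treatment as well as in time since injury. The 2 DPI and Control mice were 1 uninjected group until it was divided on day 28. No group received HC without injury, so CTX-HC against Control combines injury and HC. Liver and soleus came from C57BL/6 males fed standard diet with 7.5 g/kg HC (HC) or standard diet alone (STD), from 20 weeks of age to sacrifice at 41 weeks after a 16 h fast, with 5 libraries per group. AML12 cells, a mouse hepatocyte line, received siRNA against Acly, the gene of ATP citrate lyase (siAcly), or control siRNA (siC), and 24 h later 1 mM HC, 10 µM SB-204990 (SB), 30 µM bempedoic acid (Bemp) or nothing (Ut) for 16 h, with 3 libraries per group. HC, SB and Bemp are inhibitors of that enzyme.

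Levels are the authors' normalized values. The 4 tables were normalized separately, so levels are compared within a table. Estimated depth per library, in units of 1000000 reads, was 16.0 to 34.9 in gastrocnemius, 8.93 to 11.2 in soleus, 7.69 to 13.1 in liver and 7.31 to 16.3 in AML12 cells. A gene entered the test when as many libraries as fill a group of its table had 10 or more, which holds for 31 members in gastrocnemius, 35 in soleus, 36 in liver and 33 in AML12 cells. A change was called at an adjusted p under 0.05 by limma. Fold changes were computed on log2(value + 1). The labels do not say that the AML12 libraries came from separate cultures, so their p-values measure only the spread between these libraries.

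The tissues carried their own markers. The summed value of 6 hepatocyte genes was 810738 to 1115300 in the HC livers and 688343 to 930035 in the STD livers, and that of 6 myofibre genes 555941 to 819036 in the HC soleus libraries and 592722 to 739231 in the STD soleus libraries. The livers had a myofibre sum of at most 1.04, except 734 in Liver STD 5. Some libraries stood apart. Acly had 215 to 599 in the siAcly libraries and 2576 to 3860 in the siC libraries, except 404 in the library labelled siC Bemp 11. Cyp1a1, a target of the aryl hydrocarbon receptor, had 917 in the library labelled siC Ut 13, among the Bemp libraries (678 to 1255), and 236 in the library labelled siC Bemp 11, among the other libraries (94.8 to 495). The siC Ut and siC Bemp values therefore each hold 1 library that goes against its label. In gastrocnemius, Ptprc, which marks leukocytes, had 38.7, 45.8 and 2855 in the CTX-HC 30 DPI libraries, 548, 39.8 and 59.5 in CTX 30 DPI and 414, 478 and 67.0 in CTX 2 DPI. Replicate 3 of CTX-HC 30 DPI, replicate 1 of CTX 30 DPI and replicate 3 of CTX 2 DPI were apart, and the 30 DPI pair also had the highest fibroblast sums of their groups (54562 and 56462, with at most 15074 in the other libraries of those groups). Values are listed in the order of replicates 1, 2 and 3. Leaving out the 3 gastrocnemius libraries changed some calls, and leaving out these or the AML12 pair moved some named members by over 1.5 times. The value without them is given for some of these members, not for all.

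The receptor was checked against its known response element at the promoters. PPAR-alpha and its partner bind a direct repeat of AGGTCA with 1 base between the copies (DR1). RefSeq windows of GRCm38.p6, from 250 bases before to 50 after a start, matched 29 of the 37 members (31 windows), and both strands were searched. The exact repeat was in none of the 31 windows and in 13 of 32851 windows in all (0.0396%). With up to 2 changed letters it was in 6 member windows (19.4%), against 3.86% of all windows. These are letter matches, and binding was not measured. The 6 sites of 30 bases are shown because they are the closest in the set to the element that PPAR-alpha binds, 5′ to 3′ on the strand of the gene, with the matched bases in capitals. Positions are those of GRCm38.
Fabp1, chr6:71199804-71199833, plus strand: acaatcacTGACCTATGGCCTatatctgag
Echs1, chr7:140116483-140116512, minus strand: gcccgctcAGGTCACGGGTCCaccccttaa
Etfa, chr9:55512299-55512328, minus strand: gcacacccTTACCTTTGCCCTactcccaag
Plin2, chr4:86670263-86670292, minus strand: agctttcaGGACCCCTGACCTaagtcagac
Ucp3, chr7:100472932-100472961, plus strand: tcagaattAGGTTTCAGGTCAgctggtgca
Slc25a20, chr9:108662134-108662163, plus strand: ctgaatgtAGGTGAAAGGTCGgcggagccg

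The Fabp1 match, in the gene of the liver fatty acid binding protein, was the closest, with 1 changed letter on the opposite strand, 67 bases before the start. The match of Plin2, which coats lipid droplets, began 225 bases before the start, with 2 changed letters on the opposite strand. That of Echs1 lay 83 bases before the start, that of Etfa 77 and that of Ucp3 51, while that of Slc25a20 lay 6 bases after the start. Plin2, Echs1 and Etfa passed the test in 1 or more gastrocnemius comparisons, with Plin2 moving opposite to the others. Of all 31 tested members, 9 passed at CTX-HC 2 DPI against Control and 11 at CTX-HC 30 DPI against CTX-HC 2 DPI, beside 9.93% and 9.74% of all genes. Slc25a20 and Ucp3 did not pass with all libraries, and Fabp1 was not tested there. Without replicate 3 of CTX 2 DPI and of CTX-HC 30 DPI, Slc25a20 rose in the second comparison (log2 fold change 0.73, adjusted p = 0.0219 by limma). That fit called 36.9% of all genes in this comparison. A link of match to call was not tested. The 250 bases before the start of Plin2, the member with the lowest adjusted p in the injury experiment, are shown in full.
Plin2, chr4:86670060-86670309, minus strand: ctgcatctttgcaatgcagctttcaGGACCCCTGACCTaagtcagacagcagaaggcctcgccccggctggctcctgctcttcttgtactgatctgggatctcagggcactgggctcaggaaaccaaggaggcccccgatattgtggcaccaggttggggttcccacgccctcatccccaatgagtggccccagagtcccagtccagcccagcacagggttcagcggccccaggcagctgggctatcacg

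The leading members differed between tissues. Per kilobase of exon (GENCODE vM21), the highest mean levels in liver were those of Fabp1 (58032 per kb in HC and 45165 in STD), Cyp4a14 (17911 and 21512 per kb), Cyp4a10 (18844 and 20990 per kb) and Acaa1b, a peroxisomal thiolase (13833 and 12879 per kb). In soleus the highest was Pdk4, the kinase that shuts pyruvate dehydrogenase and so spares glucose (13751 per kb in HC and 16052 in STD), followed by Acadl, the long-chain acyl-CoA dehydrogenase (4559 and 4584 per kb). Pdk4 also led in uninjured gastrocnemius (2911 per kb), ahead of Etfb, a subunit of the electron transfer flavoprotein (2170 per kb), and Cpt1b (1939 per kb). In untreated AML12 cells Etfb led, with 2593 per kb in siAcly and 2358 in siC cells. Cyp4a10 and Cyp4a14 were at most 6.13 in every AML12 library, and the means of Fabp1 there were 18.8 per kb in siAcly Ut and 438 per kb in siC Ut cells. Exon unions count rarely used exons, so the level per kb of a gene such as Echs1 is a low estimate.

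Liver and muscle carried different forms of carnitine palmitoyltransferase 1, which commits acyl groups to mitochondria. The ratio of Cpt1a, the liver form, to Cpt1b, the muscle form, per kb of exon was 31.4 to 69.9 in the HC livers and 29.9 to 80.4 in the STD livers. It was 0.00814 to 0.0153 in the HC soleus libraries and 0.00922 to 0.0137 in the STD soleus libraries, and the groups overlapped in both tissues. A ratio within a library does not depend on how that library was scaled.

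At 2 days after cardiotoxin, HC-treated gastrocnemius had higher values of 3 members and lower values of 6 than Control, and 3 of those 6 belong to the β-oxidation spiral. At CTX-HC 2 DPI against Control, 3 of 31 tested members rose (Angptl4, Plin2 and Cpt1a) and 6 fell (Eci1, Cpt1b, Decr1, Ehhadh, Etfb and Echs1). Of all 14033 genes tested, 9.93% were called, 5.34% higher and 4.59% lower, beside 29.0% of the members. The median log2 fold change of the 31 members was -0.74, with 25 lower, and that of all genes was 0.02. By step, 1 of 4 carnitine shuttle genes rose and 1 fell, 3 of 12 spiral genes, 1 of 3 electron transfer genes and 1 of 3 tested peroxisomal genes fell, and 1 of 4 tested fatty acid handling genes and 1 of 3 tested other targets rose. The 12 spiral genes all had negative fold changes (-1.25 to -0.23, median -0.76). In 17 members every CTX-HC 2 DPI library was below every Control library, and in 3 above, where 25.2% and 25.7% of all genes were below and above. The count depended on the fit. With only the groups compared 18 members were called (beside 30.6% of all genes). With no limit on low values only Angptl4 and Plin2 were called (beside 4.97% of all genes), and with the library number series as a covariate only Plin2 (beside 1.65%).

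Angptl4 encodes a secreted inhibitor of lipoprotein lipase that fatty acids induce through the PPARs (chromosome 17, 33773750 to 33781830, minus strand). It had 854, 702 and 444 in the CTX-HC 2 DPI libraries, 375, 524 and 131 in CTX 2 DPI and 77.4, 27.9 and 224 in Control. Every CTX-HC 2 DPI library lay above every Control library, at 666 ± 207 against 109.8 ± 102 (SD, n = 3 each), 6.07-fold by the ratio of the means (log2 fold change 3.01, SE 0.67, adjusted p = 0.0256).

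Plin2 encodes perilipin 2, the coat protein of lipid droplets in most cells (chromosome 4, 86648386 to 86670060, minus strand). Its values were 5761, 3980 and 1741 in CTX-HC 2 DPI, 2310, 2508 and 903 in CTX 2 DPI and 849.6, 620.4 and 901 in Control. The CTX-HC 2 DPI libraries were all above Control, 4.84-fold by the ratio of the means (log2 fold change 2.13, SE 0.44, adjusted p = 0.0203), and 1 of them, at 1741, lay below 2 of the CTX 2 DPI libraries.

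The forms of carnitine palmitoyltransferase 1 went opposite ways. Cpt1a (chromosome 19, 3322334 to 3385733, plus strand) had 983, 779 and 341 in CTX-HC 2 DPI, 392, 484 and 262 in CTX 2 DPI and 242, 158 and 288 in Control (log2 fold change 1.52, SE 0.44, adjusted p = 0.0473). Cpt1b (chromosome 15, 89416405 to 89425863, minus strand) had 1762, 3490 and 4170 in CTX-HC 2 DPI, 4152, 4035 and 6024 in CTX 2 DPI and 6892, 6712 and 6014 in Control (log2 fold change -1.15, SE 0.34, adjusted p = 0.0496). The CTX-HC 2 DPI and Control libraries did not overlap in either gene. Their ratio per kb, Cpt1a to Cpt1b, was 0.0361 to 0.246 in CTX-HC 2 DPI and 0.0192 to 0.0529 in CTX 2 DPI, against 0.0104 to 0.0211 in Control. The muscle form was still the higher in every library. The other shuttle genes were not called. The translocase Slc25a20 had a log2 fold change of -0.26 (adjusted p = 0.462 by limma). Cpt2, the transferase of the inner membrane, had one of -0.72 (adjusted p = 0.0805).

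Of the 3 spiral genes that fell, the isomerase and reductase for unsaturated chains had the lowest fold changes. Eci1, an enoyl-CoA isomerase (chromosome 17, 24426641 to 24439348, plus strand), had 348, 449 and 627 in CTX-HC 2 DPI, 737, 501 and 669.9 in CTX 2 DPI and 1030, 1090 and 1175 in Control (log2 fold change -1.25, SE 0.36, adjusted p = 0.0458). Decr1, the dienoyl-CoA reductase (chromosome 4, 15917240 to 15945507, minus strand), had 636, 1048 and 1101 in CTX-HC 2 DPI, 1366, 1026 and 1145 in CTX 2 DPI and 1932, 1687 and 2106 in Control (log2 fold change -1.07, SE 0.30, adjusted p = 0.0428). Both were lower in every injured library of this time, with or without HC, than in any Control library. Echs1, the short-chain hydratase, fell as well, with 585, 704 and 748 in CTX-HC 2 DPI, 845, 661 and 817 in CTX 2 DPI and 1105, 1233 and 1081 in Control (log2 fold change -0.75, SE 0.22, adjusted p = 0.0473). Hadha, the α-subunit of the trifunctional protein and the spiral gene with the highest values in this tissue, had 2683, 3802 and 4058 in CTX-HC 2 DPI, 4883, 3702 and 4805 in CTX 2 DPI and 6259, 5094 and 6330 in Control, and missed the threshold (log2 fold change -0.76, SE 0.30, adjusted p = 0.0962). Acadm and Acads, the medium- and short-chain dehydrogenases, were just outside it (log2 fold change -1.25, adjusted p = 0.0619, and -0.70, adjusted p = 0.0526, by limma). Acadvl, the very-long-chain dehydrogenase, had -0.74 (adjusted p = 0.166) and Hadhb, the β-subunit of the trifunctional protein, -0.94 (adjusted p = 0.0977). Hadh had -0.75 and Acaa2 -0.99, with adjusted p = 0.0898 and 0.0908. The values nearest 0 in the spiral were those of Eci2, a second isomerase (-0.23), and Acadl (-0.27).

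Etfb encodes a subunit of the flavoprotein that takes up the electrons of the dehydrogenases. It had 1006, 1800 and 1692 in CTX-HC 2 DPI, 1995, 1768 and 2576 in CTX 2 DPI and 2713, 2389 and 2475 in Control (log2 fold change -0.80, SE 0.23, adjusted p = 0.048). Its partner Etfa had 625, 785 and 927 in CTX-HC 2 DPI, 896, 689.7 and 913 in CTX 2 DPI and 1455, 1115 and 1591 in Control, and was not called (adjusted p = 0.0988 by limma). For both subunits the CTX-HC 2 DPI libraries lay below all Control libraries. Etfdh, which passes the electrons to ubiquinone, had a log2 fold change of -0.75 (adjusted p = 0.0898) and did not overlap either.

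Peroxisomal genes moved unequally. Ehhadh, the bifunctional enzyme (chromosome 16, 21761287 to 21787807, minus strand), had 71.2, 83.4 and 117 in CTX-HC 2 DPI, 122, 82.8 and 119.6 in CTX 2 DPI and 170.0, 172 and 178 in Control, and fell (log2 fold change -0.96, SE 0.26, adjusted p = 0.0417). Hsd17b4, the D-specific bifunctional enzyme and the peroxisomal member with the highest values here, had 832, 852 and 897 in CTX-HC 2 DPI, 968, 741 and 885 in CTX 2 DPI and 900.0, 752 and 1020 in Control, with a log2 fold change of -0.04 ± 0.22 (SE) between CTX-HC 2 DPI and Control. The thiolase Acaa1a had a log2 fold change of -0.26, and its near copy Acaa1b was under the limit. Reads of such copies (Acaa1a and Acaa1b, Acot1, Acot2 and Acot3, Cyp4a10 and Cyp4a14) can be split between them in counting, so their values are uncertain.

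The remaining members of fatty acid handling and PPAR-alpha response were not called. Acsl1, the main acyl-CoA synthetase of muscle and liver, had 2201, 3835 and 5640 in CTX-HC 2 DPI, 4351, 3571 and 6162 in CTX 2 DPI and 5367, 4409 and 6351 in Control. Pdk4 had 14917, 15469 and 26214 in CTX-HC 2 DPI, 24518, 14630 and 13582 in CTX 2 DPI and 8738, 3411 and 18510 in Control, and the Control libraries overlapped the others (log2 fold change 1.15, SE 0.51, adjusted p = 0.124). Ppara itself had 142, 439 and 607 in CTX-HC 2 DPI, 392, 390.0 and 558 in CTX 2 DPI and 817, 375 and 658 in Control, and the groups overlapped (log2 fold change -0.80, SE 0.57, adjusted p = 0.32). Ucp3, a mitochondrial carrier of muscle, and the thioesterases Acot1 and Acot2 had log2 fold changes of 0.20, 0.64 and -0.17.

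**Figure D1:**
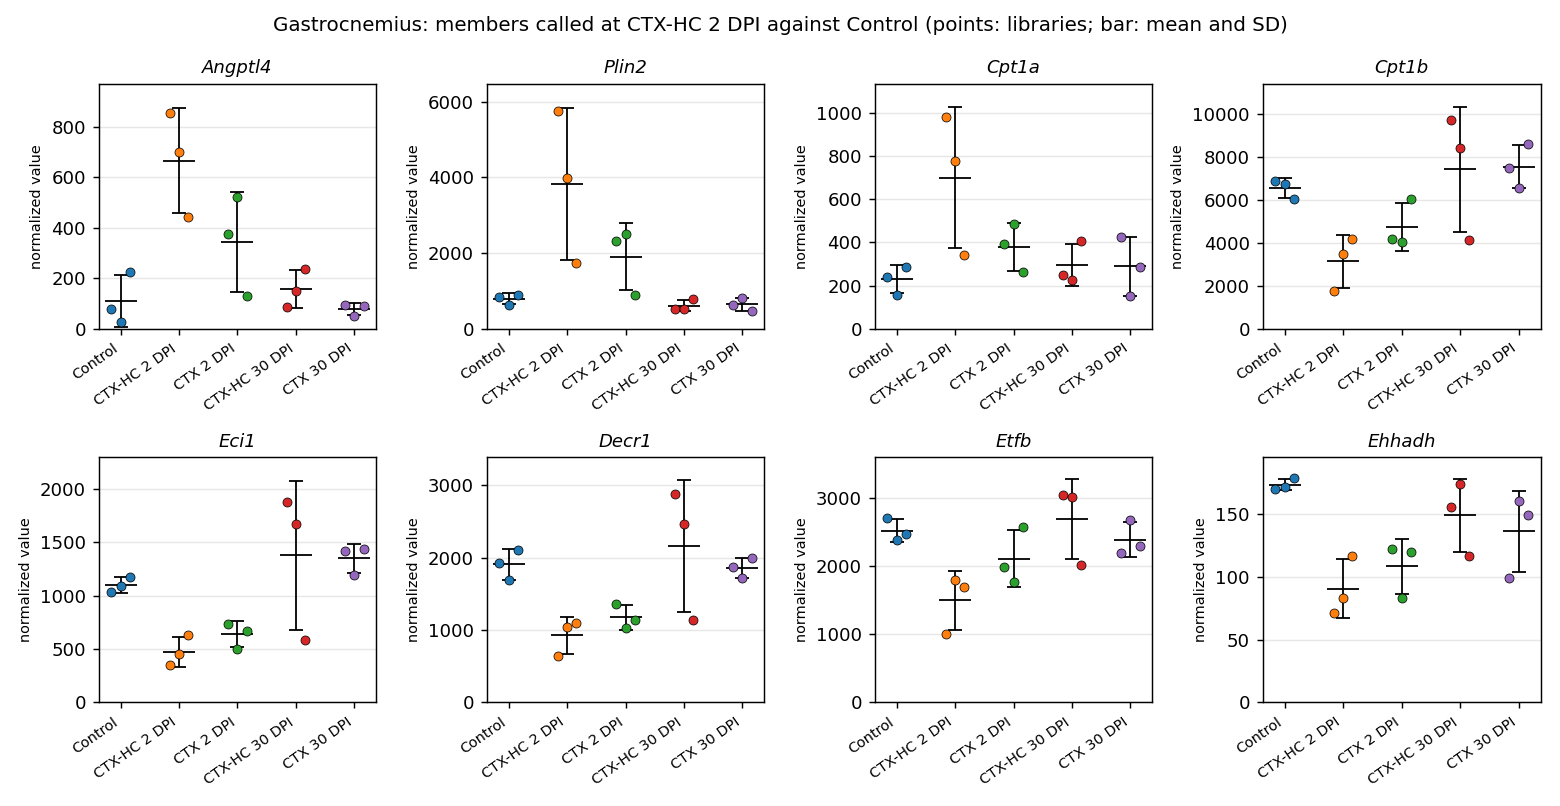
Normalized values (y axis, linear from 0) of 8 of the 9 members called at CTX-HC 2 DPI against Control, by group of gastrocnemius libraries (x axis), with a point per library and a bar for mean and SD (n = 3). Angptl4, Plin2 and Cpt1a stand highest at CTX-HC 2 DPI, Cpt1b, Eci1, Decr1, Etfb and Ehhadh lowest on average, and CTX-HC 30 DPI replicate 3, with a Cpt1b of 4126, lies apart from its group.

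Injury without HC gave no called member at this time. At CTX 2 DPI against Control, 0 of 31 members and 0% of all genes were called by limma, and 8 members had an unadjusted p under 0.05, beside 14.9% of all genes. The smallest p-values were those of Angptl4 (log2 fold change 1.89 ± 0.67, SE, adjusted p = 0.285), Ehhadh (-0.70 ± 0.26, adjusted p = 0.3) and Plin2 (1.15 ± 0.44, adjusted p = 0.301). The median of the 31 members was -0.40, with 24 lower, against 0.03 for all genes. Without the 3 libraries that stood apart, 0 members and 3.73% of all genes were called, and 16 members had such a p. The share of all genes with such a p was not computed for that fit, so the 16 cannot be weighed. In 1 member every CTX 2 DPI library was above every Control library, and in 12 below, where 13.5% and 15.6% of all genes were above and below.

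HC against no HC after injury is the direct comparison at that time. At CTX-HC 2 DPI against CTX 2 DPI, 0 of 31 members and 0% of all genes were called by limma, with 2 members and 7.16% of all genes at an unadjusted p under 0.05. Those members were Etfb (log2 fold change -0.52 ± 0.23, SE, adjusted p = 0.662) and Plin2 (0.98 ± 0.44, adjusted p = 0.662). Next came Cpt1b (-0.66 ± 0.34, adjusted p = 0.662). The CTX-HC 2 DPI and CTX 2 DPI libraries overlapped in all 3 genes. Without the libraries that stood apart (here replicate 3 of CTX 2 DPI), Plin2 had 0.51 (adjusted p = 0.884), Etfb -0.37 and Cpt1b -0.47, and 0 members and 0% of all genes were called. Acads was the 1 member of 31 whose CTX-HC 2 DPI libraries, with 584, 776 and 738, all lay below the CTX 2 DPI libraries, with 925, 789 and 866 (log2 fold change -0.31, SE 0.21, adjusted p = 0.679). Among all genes a larger share, 7.35%, lay wholly below. The median over members was -0.26, with 25 of 31 lower, against 0.02 for all genes, and it was -0.17 without that library. Both injured groups at this time were set against the same Control libraries.

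Genes of other mitochondrial pathways and of other cells differed over the same libraries. The summed value of the 12 spiral genes was 18945 ± 4774 in CTX-HC 2 DPI, 23334 ± 3502 in CTX 2 DPI and 32278 ± 4014 in Control (SD, n = 3 each). A sum of 8 respiratory chain and citrate cycle genes (Cs, Idh3a, Sdha, Uqcrc1, Cox4i1, Cox5a, Ndufs1 and Atp5b) was 66881 ± 19247 in CTX-HC 2 DPI, 85100 ± 17165 in CTX 2 DPI and 118292 ± 6031 in Control. The spiral sum over that sum was 0.286 ± 0.0148 in CTX-HC 2 DPI, 0.277 ± 0.0288 in CTX 2 DPI and 0.274 ± 0.0468 in Control, and these ratios overlapped. A sum of 6 myofibre genes was 878042 to 1293620 in CTX-HC 2 DPI, 1289050 to 2437940 in CTX 2 DPI and 2274210 to 3119630 in Control. That of 4 slow myofibre genes was 250.3 to 572 in CTX-HC 2 DPI, 1864 to 3583 in CTX 2 DPI and 1694 to 10870 in Control, and 3 of the 4 fell at CTX-HC 2 DPI against Control. For 6 white blood cell genes the sum was 4732 to 21050 in CTX-HC 2 DPI, 1515 to 8931 in CTX 2 DPI and 616 to 2980 in Control, with 1 of 6 called higher at CTX-HC 2 DPI. The part of these cell types in the values of the members was not tested, and in bulk tissue fewer cells of a type and less RNA per cell cannot be told apart.

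**Figure D2:**
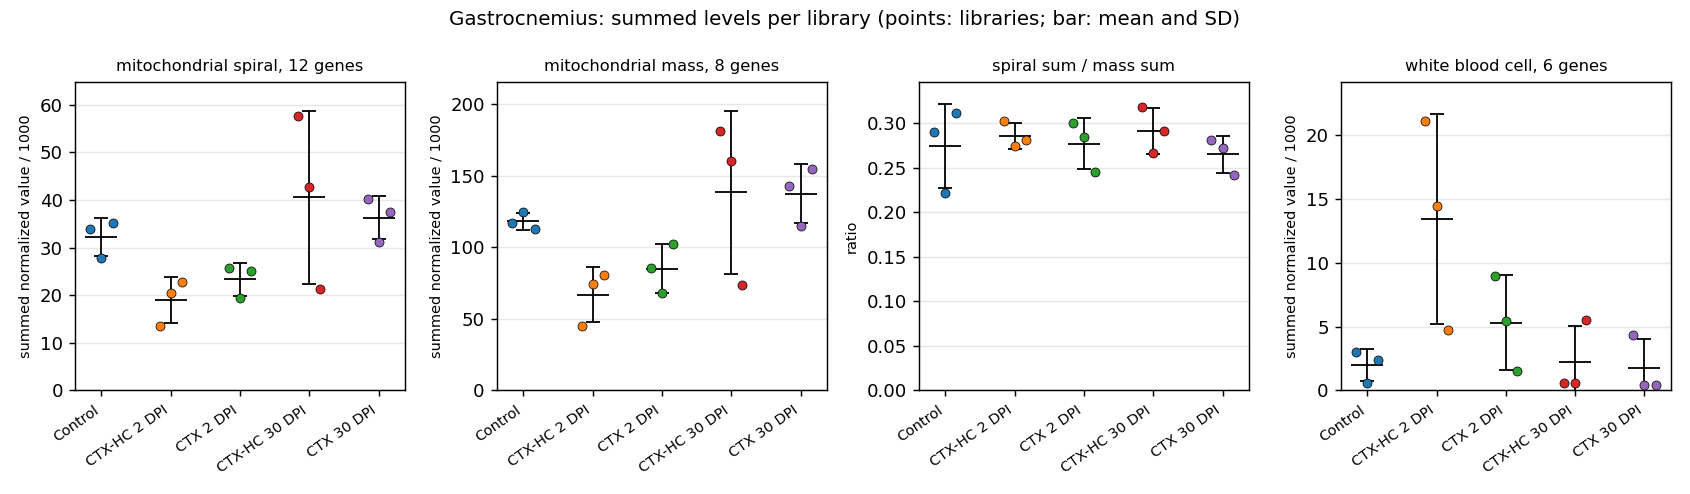
Summed normalized values divided by 1000 (y axes from 0) of the 12 spiral genes, of 8 respiratory chain and citrate cycle genes and of 6 white blood cell genes, and the ratio of the first sum to the second, by group of gastrocnemius libraries with a point per library and a bar for mean and SD (n = 3, the bar stops at 0). The spiral sum averages 18945 in CTX-HC 2 DPI and 32278 in Control, while the ratio stays between 0.222 and 0.318 in all 15 libraries.

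In HC-treated muscle 10 members, 9 of them of the spiral and electron transfer, were higher and Plin2 was lower at 30 days than at 2 days. At CTX-HC 30 DPI against CTX-HC 2 DPI, 10 of 31 members rose and 1 fell, beside 9.74% of all genes called, 4.2% higher and 5.54% lower. The rises were 6 of 12 spiral genes (Acads, Hadh, Echs1, Acaa2, Eci1 and Decr1), all 3 electron transfer genes (Etfa, Etfb and Etfdh) and Cpt1b, and the fall was Plin2. The median log2 fold change of the members was 0.88, with 28 of 31 higher. In 9 members every CTX-HC 30 DPI library was above every CTX-HC 2 DPI library, and in 2 below, where 11.4% and 13.3% of all genes were. With only the groups compared in the fit, 0 members were called, beside 0.164% of all genes.

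Eci1 had 1880, 1675 and 581 in CTX-HC 30 DPI, and rose against CTX-HC 2 DPI (log2 fold change 1.41, SE 0.36, adjusted p = 0.0329). Acaa2, the thiolase that ends each turn of the spiral, had 3160, 2194 and 1043 in CTX-HC 30 DPI and 470.0, 932 and 894 in CTX-HC 2 DPI (log2 fold change 1.40, SE 0.38, adjusted p = 0.0392). Cpt1b had 9703, 8410 and 4126 at 30 DPI (log2 fold change 1.24, SE 0.34, adjusted p = 0.0405), and Etfa had 2804, 2012 and 933 (log2 fold change 1.18, SE 0.33, adjusted p = 0.044). In each of these 4 genes replicate 3, the library with the high Ptprc, was the lowest at 30 DPI. It lay among the CTX-HC 2 DPI values of Eci1 and Cpt1b and above those of Acaa2 and Etfa. Plin2 had 512, 532 and 780.2 in CTX-HC 30 DPI, below all CTX-HC 2 DPI values (log2 fold change -2.52, SE 0.44, adjusted p = 0.00764). Angptl4 had 86.3, 150.3 and 235 in CTX-HC 30 DPI and missed the threshold (log2 fold change -2.14, SE 0.67, adjusted p = 0.0583). Cpt1a had 248, 228 and 408 and also missed it (log2 fold change -1.16, SE 0.44, adjusted p = 0.0994). Of the members with the highest values of their step, Hadha had 11166, 7208 and 4102 (log2 fold change 1.00, SE 0.30, adjusted p = 0.0521) and Hsd17b4 had 1179, 1010 and 615 (log2 fold change 0.07, SE 0.22, adjusted p = 0.863) in CTX-HC 30 DPI. Etfb had 3052, 3023 and 2024 there and rose (log2 fold change 0.87, SE 0.23, adjusted p = 0.0382), and Acsl1 had 8324, 6374 and 4603 (log2 fold change 0.79, SE 0.32, adjusted p = 0.117). Ppara had 2037, 1065 and 576 in CTX-HC 30 DPI, of which 2 were above every CTX-HC 2 DPI value (log2 fold change 1.68, SE 0.57, adjusted p = 0.0737). All 4 slow myofibre genes also rose, with sums of 10788 to 57655 in CTX-HC 30 DPI and 250.3 to 572 in CTX-HC 2 DPI, and 3 of 6 white blood cell genes fell. Their part in the rise of the members was not tested.

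Without the 3 libraries that stood apart, a fit chosen after the data were seen, more members passed. The count was then 24 of 31 at CTX-HC 30 DPI against CTX-HC 2 DPI (21 rose and 3 fell, beside 39.1% of all genes), with Ppara at 2.13 (adjusted p = 0.015 by limma), Angptl4 at -2.49 (adjusted p = 0.0149) and Cpt1a at -1.42 (adjusted p = 0.023). Hsd17b4 then had 0.34 and was not called. At CTX-HC 2 DPI against Control 18 of 31 were called (3 rose and 15 fell, beside 33.7% of all genes). The 9 and 11 members named above were all among them. Both fits rest largely on the same libraries, so this is not separate support. Without only replicate 3 of CTX 2 DPI and of CTX-HC 30 DPI, members that missed the threshold above also fell at CTX-HC 2 DPI against Control. These were Cpt2, Acadm, Acads, Hadha, Hadhb, Hadh, Acaa2, Etfa and Etfdh (adjusted p = 0.00674 to 0.0311 by limma). They stood beside 30.8% of all genes called. Both left-out libraries enter this comparison only through the shared spread, so the fold changes were the same as above. In that fit Hadha (1.37, adjusted p = 0.00277) and Acsl1 (1.01, adjusted p = 0.0279) rose at CTX-HC 30 DPI against CTX-HC 2 DPI, where 36.9% of all genes were called. Leaving out 1 library could end the calls, over all genes as well as over the members. At CTX-HC 2 DPI against Control, 0 members were called without replicate 1 or 2 of CTX-HC 2 DPI (beside 0.278% and 1.19% of all genes) or replicate 1 or 2 of Control (0.463% and 0.235%), and 2 without replicate 3 of Control (2.79%). Without replicate 1 of CTX 30 DPI alone, which enters that comparison only through the shared spread, 5 were called (Angptl4, Plin2, Cpt1a, Decr1 and Ehhadh), beside 10.4%. At CTX-HC 30 DPI against CTX-HC 2 DPI, only Plin2 was called without replicate 1 or 2 of CTX-HC 30 DPI (beside 1.3% and 1.58% of all genes) or replicate 1 or 2 of CTX-HC 2 DPI (1.14% and 2.57%).

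Injured muscle without HC gave no called member between the times. At CTX 30 DPI against CTX 2 DPI, 0 of 31 members were called by limma, beside 0.257% of all genes, and 10 had an unadjusted p under 0.05, beside 21.1% of all genes. Echs1 had 1408, 1180 and 1417 in CTX 30 DPI (log2 fold change 0.79, SE 0.22, adjusted p = 0.117), Plin2 had 634, 807 and 478 (log2 fold change -1.47, SE 0.44, adjusted p = 0.126) and Acaa2 had 2379, 1320 and 1906, against 839, 852 and 663 in CTX 2 DPI (log2 fold change 1.22, SE 0.38, adjusted p = 0.134). All 12 spiral genes had positive fold changes. In 10 of them every CTX 30 DPI library was above every CTX 2 DPI library, as in 13 of all 31 members and 14.5% of all genes. The sum of 4 slow myofibre genes was 12025 to 49135 in CTX 30 DPI and 1864 to 3583 in CTX 2 DPI, without overlap. That of the 8 respiratory chain and citrate cycle genes was 137555 ± 20550 in CTX 30 DPI and 85100 ± 17165 in CTX 2 DPI, and the spiral sum divided by it was 0.265 ± 0.0206 in CTX 30 DPI and 0.277 ± 0.0288 in CTX 2 DPI (SD, n = 3 each). White blood cell sums were 395 to 4375 in CTX 30 DPI and 1515 to 8931 in CTX 2 DPI. The part of these in the values of the members was not tested. Without the 3 libraries that stood apart, 6 members passed, beside 11.2% of all genes. Acads, Echs1, Eci1 and Etfa rose, and Plin2 and Angptl4 fell. Whether the change between the times differed with HC was tested as an interaction. For HC against no HC at 30 DPI minus that at 2 DPI, 0 of 31 members and 0% of all genes were called by limma, with 0 members and 2.53% of all genes at an unadjusted p under 0.05. The smallest p-values belonged to Etfb (log2 fold change 0.68, SE 0.33, adjusted p = 0.999), Plin2 (log2 fold change -1.04, SE 0.62, adjusted p = 0.999) and Acadl (log2 fold change 0.65, SE 0.39, adjusted p = 0.999). Without the 3 libraries Acadl had 1.11, and 0 members and 0% of all genes were called. At an unadjusted p under 0.05 there were then 8 members, and the share of all genes was not computed. Etfb had 2195, 2679 and 2302 in CTX 30 DPI. Acadl had 2254, 2870 and 3184 in CTX-HC 2 DPI and 3640, 3443 and 3142 in CTX 2 DPI.

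No member passed the test against Control at 30 days. For CTX 30 DPI against Control, 0 of 31 members and 0% of all genes were called by limma, with 0 members and 3.11% of all genes at an unadjusted p under 0.05, and a median of 0.14. The median was 0.07 without the 3 libraries that stood apart. Pdk4 had 10195, 17963 and 17916 in CTX 30 DPI (log2 fold change 0.86, SE 0.51, adjusted p = 1), and Ehhadh had 98.97, 159.9 and 149 (log2 fold change -0.38, SE 0.26, adjusted p = 1), or a log2 fold change of -0.17 without them. Echs1 came next (log2 fold change 0.23, values above). For CTX-HC 30 DPI against Control, 0 members and 0% of all genes were called, with 1 member and 2.76% of all genes at an unadjusted p under 0.05, and a median of 0.21, with 28 of 31 higher. Without the libraries that stood apart, 0 members and 0% of all genes were called, and 15 members had an unadjusted p under 0.05. The share of all genes at that p was not computed for this fit. The median of the members was then 0.55, with 29 of 31 higher, and Acadl had 0.78 in place of 0.49. The 1 member with such a p in the fit of all libraries was Pdk4, with 21804, 22639 and 12437 in CTX-HC 30 DPI (log2 fold change 1.16, SE 0.51, adjusted p = 1). Acot1 had 21.6, 39.5 and 17.05 in CTX-HC 30 DPI, 7.54, 6.63 and 1.83 in CTX 30 DPI and 9.54, 6.69 and 7.63 in Control. It was the 1 member with an unadjusted p under 0.05 between CTX-HC 30 DPI and CTX 30 DPI (log2 fold change 2.16, SE 0.83, adjusted p = 1), where 0 of 31 members and 0% of all genes were called and 0.755% of all genes had such a p. All 3 CTX-HC 30 DPI values of this low gene were above those of CTX 30 DPI and Control. Among all genes, 1.43% lay wholly above CTX 30 DPI and 4.72% wholly above Control. Angptl4 and Acadl came next between the injured groups, with log2 fold changes of 0.93 and 0.34. Without the libraries that stood apart these were 0.74 and 0.74, with 29 of 31 members higher and a median of 0.49 in place of 0.10. In that fit 0 members and 0% of all genes were called. At an unadjusted p under 0.05 there were 5 members, and the share of all genes was not computed. Angptl4 had 86.3, 150.3 and 235 in CTX-HC 30 DPI and 93.1, 50.8 and 90.9 in CTX 30 DPI. Acadl had 6751, 4762 and 3100 in CTX-HC 30 DPI, 4237, 3419 and 3377 in CTX 30 DPI and 3768, 2282 and 4181 in Control.

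A list of 69 other genes of these pathways had 60 tested in gastrocnemius. At CTX-HC 2 DPI against Control 2 of the 60 rose and 7 fell, and at CTX-HC 30 DPI against CTX-HC 2 DPI 8 rose and 1 fell, 15% of the list both times, beside 9.93% and 9.74% of all genes. Abcd2, a peroxisomal acyl-CoA transporter, and Acadsb, a dehydrogenase of short branched chains, had the lowest fold changes of those that fell at 2 DPI (log2 fold changes -1.84 and -1.27, adjusted p = 0.0313 and 0.0279). Decr2, the peroxisomal dienoyl-CoA reductase, rose then (1.18, adjusted p = 0.0428), opposite to its mitochondrial counterpart Decr1, and Slc27a4, a fatty acid transport protein, rose by 0.60 (adjusted p = 0.0333). Between the times under HC the largest rises were those of Fabp3, the fatty acid binding protein of muscle (1.73, adjusted p = 0.0496), and Acadsb (1.15, adjusted p = 0.0336), and Decr2 fell (-1.37, adjusted p = 0.0263). None of the list was called in any other comparison of the 4 tables.

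Members best known from liver were near 0 in gastrocnemius. Cyp4a14, which had the highest values of the microsomal pair, had 0, 0 and 0 in CTX-HC 2 DPI, 0.932, 17.1 and 0 in CTX 2 DPI and 0, 3.81 and 29.9 in Control, and at 30 DPI 34.9, 3.98 and 0 in CTX-HC and 5.29, 4.44 and 0 in CTX. Fabp1, Slc27a2, Acaa1b, Cyp4a10, Acot3 and Vnn1 were not tested there, and none passed 25.6 in any library. Alb, the hepatocyte gene for albumin, had 2.90, 0.873 and 8.34 in CTX-HC 2 DPI, 13.9, 55.2 and 4.28 in CTX 2 DPI and 3.68, 386 and 176 in Control, and its part in these traces was not tested.

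**Figure D3:**
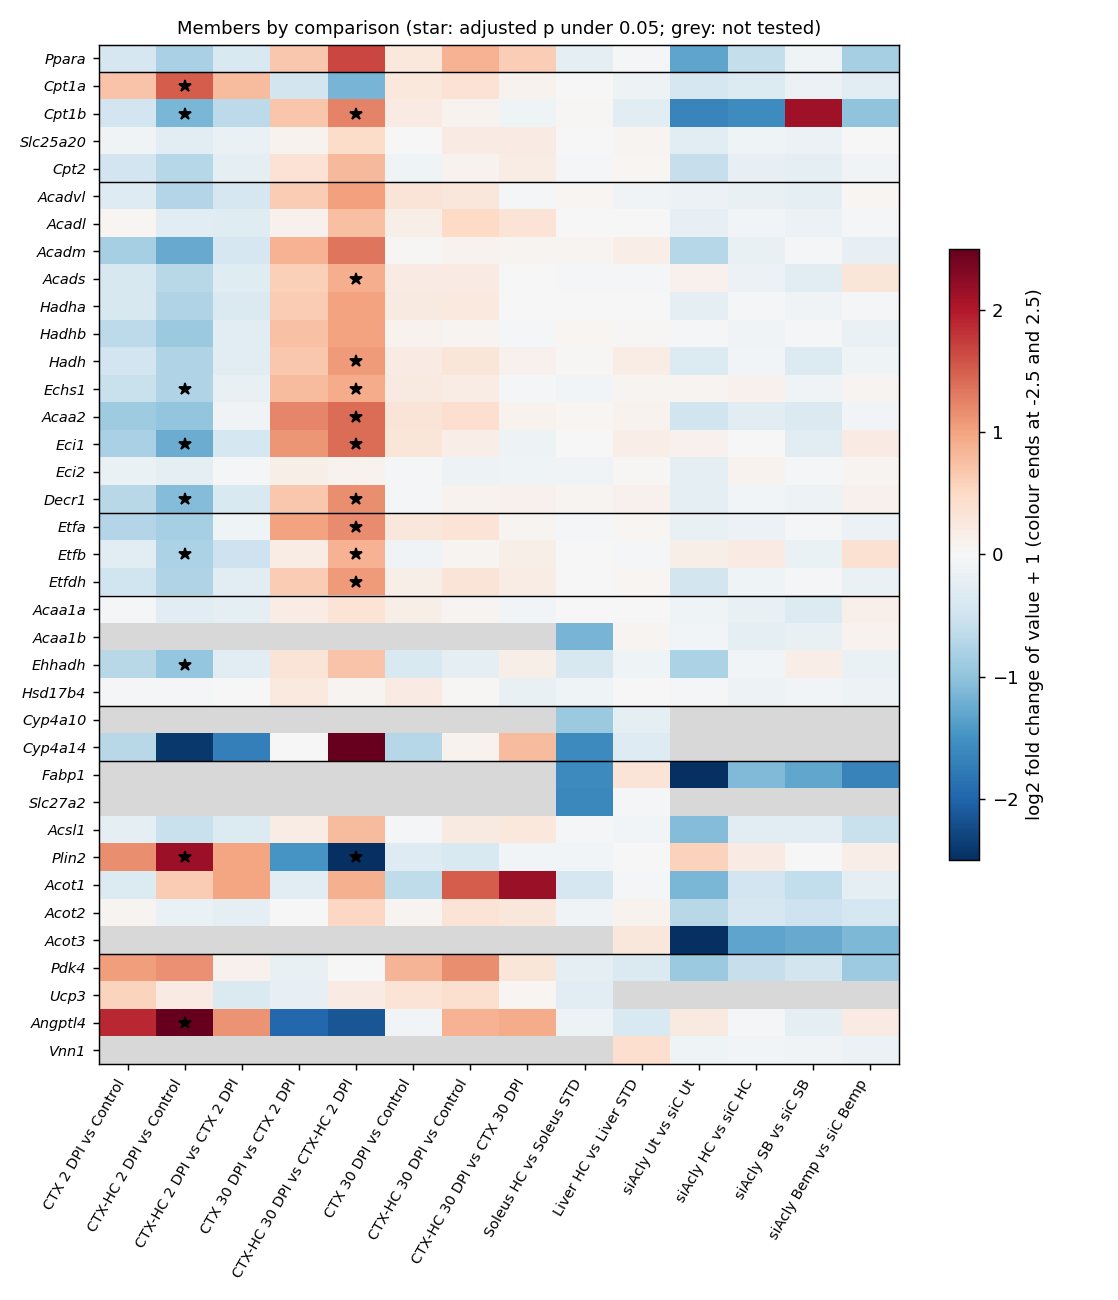
Log2 fold change (colour, ends at -2.5 and 2.5) of the 37 members (rows, by step from Ppara down to the other PPAR-alpha targets) in 14 comparisons (columns), with a star where limma's adjusted p was under 0.05 and grey where a gene was not tested. All 20 stars are in the columns CTX-HC 2 DPI against Control (9) and CTX-HC 30 DPI against CTX-HC 2 DPI (11).

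In soleus no member passed the test after long-term HC. At HC against STD, 0 of 35 tested members and 0% of 12067 genes were called by limma, and 2 members had an unadjusted p under 0.05, beside 5.05% of all genes. The median log2 fold change of the members was -0.04. The 12 spiral genes lay between -0.10 and 0.07 and the 4 carnitine shuttle genes between -0.02 and 0.03. The spiral sum over that of the 8 respiratory chain and citrate cycle genes was 0.748 ± 0.0434 in HC and 0.714 ± 0.0194 in STD (SD, n = 5 each).

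Pdk4 was the member with the smallest p in soleus. It had 52974, 46159, 45104, 43161 and 54006 in the HC libraries and 56377, 50910, 54126, 66298 and 54083 in the STD libraries, and the groups overlapped. Its log2 fold change was -0.22 ± 0.10 (SE, adjusted p = 0.972 by limma), with p = 0.0397 in a two-sided exact permutation test, the smallest possible being 0.00794. It was 1 of 35 members under 0.05 in that test, which was run on members only and so has no share of all genes beside it. Ppara had 784, 1191, 1035, 1307 and 984 in HC and 1499, 1429, 1165, 869 and 1334 in STD (log2 fold change -0.24, SE 0.16, adjusted p = 0.994).

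The lowest fold changes in soleus belonged to members best known from liver. Fabp1 had 57.4, 4.19, 6.79, 4.48 and 58.2 in HC and 164, 26.9, 42.4, 19.8 and 44.5 in STD (log2 fold change -1.59, SE 0.77, adjusted p = 0.986). Cyp4a14 had 17.7, 4.10, 2.91, 0.905 and 38.0 in HC and 59.04, 15.9, 25.2, 12.4 and 17.9 in STD (log2 fold change -1.58, SE 0.72, adjusted p = 0.979). Alb moved over the same libraries, with 482, 23.5, 36.9, 16.2 and 490.2 in HC and 1087, 179.6, 339, 181 and 291 in STD, and Apoa1, the apolipoprotein of HDL, had 178, 7.21, 5.82, 2.69 and 132 in HC and 182, 34.3, 54.97, 29.2 and 72.5 in STD. Within the HC group replicates 1 and 5 were the highest in all 4 genes, and within STD replicate 1 was. The summed value of the 6 hepatocyte genes was 21.6 to 881 in HC and 277 to 1638 in STD, and its part in the values of these members was not tested. Cyp4a10, Slc27a2 and Acaa1b had fold changes of -0.94, -1.62 and -1.17 on the log2 scale, with 0 called.

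In the livers, taken after a fast, no member passed the test either. At HC against STD, 0 of 36 tested members and 0% of 11497 genes were called by limma, with 2 members and 4.24% of all genes at an unadjusted p under 0.05. The median log2 fold change was 0.01, with 19 higher and 17 lower. The 12 spiral genes lay between -0.08 and 0.19, the 4 peroxisomal genes between -0.11 and 0.07 and the microsomal pair at -0.33 for Cyp4a14 and -0.23 for Cyp4a10.

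Hadh, the 3-hydroxyacyl-CoA dehydrogenase of short and medium chains (chromosome 3, 131233419 to 131272101, minus strand), was the 1 member whose groups did not overlap. It had 4480, 4772, 4904, 4771 and 4818 in the HC livers and 4061, 4124, 4443, 4049 and 4173 in the STD livers, 1.14-fold (log2 fold change 0.19 ± 0.07, SE, adjusted p = 0.995 by limma). The two-sided exact permutation test gave p = 0.00794, the smallest it can give with 5 against 5. Among all genes 0.322% lay wholly above in HC. Angptl4 had 1989, 3166, 2141, 1396 and 2287 in HC and 2856, 2694, 2460, 3149 and 2644 in STD, and the groups overlapped (log2 fold change -0.37, SE 0.17, adjusted p = 0.995, exact permutation p = 0.0952). Eci1 had 1824, 1998, 1880, 1641 and 2219 in HC and 1724, 1710, 1698, 1744 and 1632 in STD (log2 fold change 0.16, SE 0.08, adjusted p = 0.995, exact permutation p = 0.0476). Of 36 members, 2 were under 0.05 in the exact test. It was run on members only, so no share of all genes stands beside that count, and some members pass 0.05 by chance.

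The SD was larger among HC livers than among STD livers for several PPAR-alpha targets. Ehhadh had 15268, 15519, 11237, 5848 and 29439 in HC and 14901, 16227, 11842, 15661 and 14949 in STD, with means of 15462 ± 8742 and 14716 ± 1697 (SD, n = 5 each). Cyp4a14 had 52523, 52790, 42876, 24396 and 60345 in HC and 58464, 55762, 50987, 57172 and 57376 in STD. In both, replicate 4 of HC was the lowest of all 10 livers and replicate 5 of HC the highest. Acot1 had 1773, 4215, 2705, 740.4 and 2684 in HC and 1728, 2543, 1789, 1938 and 3108 in STD, with replicate 4 of HC lowest and replicate 2 of HC highest. Ppara had 5027, 4351, 6798, 5158 and 6405 in HC and 5483, 6532, 7116, 4193 and 5595 in STD, and the groups overlapped (log2 fold change -0.06, SE 0.15, adjusted p = 0.995). No test of the spread itself was made.

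**Figure D4:**
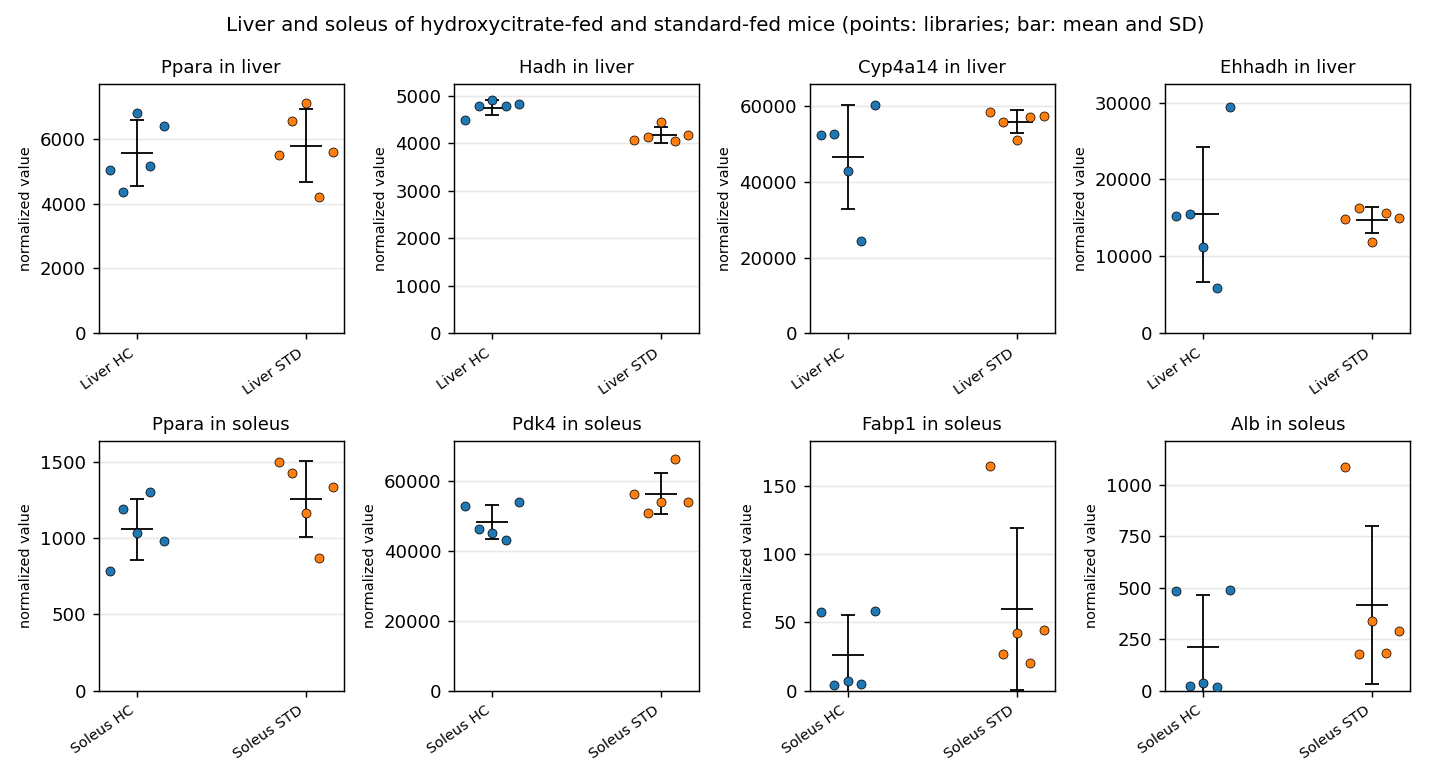
Normalized values (y axes, linear from 0) in liver (upper row) and soleus (lower row), HC left of STD, with a point per library and a bar for mean and SD (n = 5, the bar stops at 0). Hadh does not overlap in liver (at least 4480 in HC, at most 4443 in STD), Ehhadh spreads from 5848 to 29439 among HC livers, and Fabp1 and Alb are high in the same soleus libraries.

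In untreated AML12 cells, knockdown of Acly went with lower values of Ppara, Cpt1a and Pdk4, short of the threshold. At siAcly Ut against siC Ut, 0 of 33 tested members were called by limma, beside 0.187% of 12296 genes, and 7 had an unadjusted p under 0.05, beside 19% of all genes. The median log2 fold change of the members was -0.24, with 27 lower, against -0.03 for all genes. In 15 members every siAcly Ut library was below every siC Ut library, where 11.2% of all genes were, and in 0 every one was above.

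Ppara (chromosome 15, 85734983 to 85802819, plus strand) had 110.4, 133 and 85.9 in siAcly Ut and 291, 257 and 267 in siC Ut (log2 fold change -1.32, SE 0.34, adjusted p = 0.0899). With the number series (1 to 23 or 81 to 87) as a covariate, Ppara was called (log2 fold change -1.15, adjusted p = 0.0454). Cpt1a had 4425, 4357 and 4142 in siAcly Ut and 5037, 6141 and 6221 in siC Ut (log2 fold change -0.42, SE 0.12, adjusted p = 0.109). Pdk4 had 76.7, 66.6 and 53.3 in siAcly Ut and 132, 104.2 and 138 in siC Ut (log2 fold change -0.92, SE 0.33, adjusted p = 0.159). The groups did not overlap in any of the 3 genes. Without the libraries labelled siC Ut 13 and siC Bemp 11, their log2 fold changes were -1.33, -0.37 and -0.85, and 0 of 33 members were called in that or any other AML12 comparison.

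With an inhibitor present, Ppara also had negative differences between siAcly and siC. In HC, Ppara had 189.7, 122 and 128 in siAcly and 312, 243 and 136 in siC cells (-0.60 ± 0.34 on the log2 scale, SE). In SB it had 156, 283 and 118 in siAcly and 251, 193 and 133 in siC cells (-0.10 ± 0.34). In Bemp it had 154, 115 and 137 in siAcly and 261, 338 and 155 in siC cells (-0.83 ± 0.34). Replicate 3 of each treated siC group, numbered 81, 82 or 83, was the lowest of its group. Libraries 81 to 87 had Ppara at 110.4 to 155, 1 of them is a siAcly Ut library and none a siC Ut library.

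Cpt1a kept the order of siAcly below siC in HC, with 3985, 3973 and 4473 in siAcly and 5076, 5133 and 5436 in siC cells (log2 fold change -0.33, SE 0.12, adjusted p = 0.89). In Bemp it had 4290, 5014 and 4798 in siAcly and 4933, 6277 and 5829 in siC cells, which overlapped through the library labelled siC Bemp 11 (log2 fold change -0.27, SE 0.12, adjusted p = 0.933), and without it the log2 fold change was -0.37. In SB it had 5026, 5282 and 4971 in siAcly and 5063, 6338 and 5659 in siC cells, which overlapped (log2 fold change -0.15). Pdk4 had 109, 73.1 and 48.7 in siAcly and 131, 103.7 and 97.6 in siC cells under HC (log2 fold change -0.58, SE 0.33, adjusted p = 0.914). Under Bemp it had 115, 78.02 and 59.8 in siAcly and 115, 213 and 147 in siC cells (log2 fold change -0.91, SE 0.33, adjusted p = 0.933). By limma 0 of 33 members were called at siAcly HC against siC HC, beside 0.00813% of all genes, 0 at siAcly SB against siC SB and 0 at siAcly Bemp against siC Bemp, both beside 0%. An unadjusted p under 0.05 was seen for 1 member (5.33% of all genes) in HC, 0 (3.04%) in SB and 3 (3.94%) in Bemp. In SB the smallest p-values were those of Acaa1a, Eci1 and Hadh. Acaa1a had 2077, 1730 and 1706 in siAcly and 2107, 2620 and 2271 in siC cells, Eci1 had 929, 812 and 733 in siAcly and 1032, 1013 and 935 in siC cells, without overlap in either gene. Hadh had 1604, 1604 and 1182 in siAcly and 1960, 1958 and 1594 in siC cells, and overlapped. Every siAcly library was below every siC library in 2 members in HC, 4 in SB and 2 in Bemp. The shares of all genes were 4.03%, 3.73% and 3.38%.

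The inhibitors gave no called member in cells with Acly. Against siC Ut, 0 of 33 members and 0% of all genes were called by limma in siC HC, siC SB and siC Bemp, and 0 members had an unadjusted p under 0.05, beside 0.342% of all genes for HC, 0.569% for SB and 1.95% for Bemp. For HC the smallest p-values were those of Slc25a20, Hadha and Eci2. Slc25a20 had 531, 578 and 503 in siC HC and 610.5, 605 and 681 in siC Ut, without overlap (log2 fold change -0.23, SE 0.14, adjusted p = 1). Hadha had 2343, 2597 and 2250 in siC HC and 2530, 2610 and 3098 in siC Ut (log2 fold change -0.19, or -0.10 without siC Ut 13). Eci2 had 1213, 1341 and 987 in siC HC and 1368, 1353 and 1428 in siC Ut (log2 fold change -0.24), without overlap. For SB they were those of Ppara, Plin2 and Vnn1, a pantetheinase, at -0.54, 0.35 and -0.30. Vnn1 had 408, 399 and 327 in siC SB and 428, 459 and 508 in siC Ut, without overlap. Plin2 had 3533, 4206 and 5575 in siC SB and 3038, 3572 and 3668 in siC Ut, which overlapped. Of the 33 members, 2 lay wholly below siC Ut in HC and 3 in SB, beside 1.35% and 2.53% of all genes. Wholly above were 0 in HC and 1 in SB, beside 1.16% and 3.33%.

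For Bemp in siC cells the smallest p-values were those of Acaa1a, Cpt1b and Acads. Acaa1a had 1599, 2236 and 2501 in siC Bemp and 2053, 2874 and 2872 in siC Ut (log2 fold change -0.31, SE 0.20, adjusted p = 0.927), and Acads had 850.1, 1064 and 1439 in siC Bemp and 1014, 1623 and 1650 in siC Ut (log2 fold change -0.35, SE 0.24, adjusted p = 0.927). Both groups hold a library that stood apart, and without these the log2 fold changes were -0.04 for Acaa1a and -0.05 for Acads. Cpt1b had 8.71, 19.7 and 22.3 in siC Bemp and 0, 30.3 and 0 in siC Ut. It was listed at 0 in 12 of the 24 AML12 libraries and at most 30.3 in the others.

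With Acly knocked down, no inhibitor gave a called member. SB-204990 had 3 of 33 members at an unadjusted p under 0.05, a smaller share than that of all genes, and the other inhibitors had 0. Against siAcly Ut, 0 of 33 members and 0% of all genes were called by limma for each inhibitor, and the genes with such a p were 2.2% of all for HC, 13.4% for SB and 2.55% for Bemp. Eci1 had 929, 812 and 733 in siAcly SB and 959.7, 1072 and 1378 in siAcly Ut, without overlap (log2 fold change -0.45, SE 0.16, adjusted p = 0.331). Pdk4 had 107.3, 182 and 77.99 in siAcly SB and 76.7, 66.6 and 53.3 in siAcly Ut, also without overlap and in the other direction (log2 fold change 0.82, SE 0.33, adjusted p = 0.34). Acads had 1272, 880.1 and 1066 in siAcly SB and 1455, 1393 and 1667 in siAcly Ut (log2 fold change -0.50, SE 0.24, adjusted p = 0.372). In 5 members every siAcly SB library was below every siAcly Ut library and in 2 above, where 8.59% and 8.09% of all genes were. For HC the smallest p-values were those of Angptl4, Acads and Eci1, with log2 fold changes of -0.40, -0.35 and -0.22. Angptl4 had 615, 601 and 585 in siAcly HC and 715, 583 and 1204 in siAcly Ut, and the groups overlapped. In siAcly HC, Acads had 1037, 1455 and 1080 and Eci1 had 1059, 1041 and 807, and both overlapped siAcly Ut. For Bemp they were those of Cpt1b, Ehhadh and Acaa2. Cpt1b had 28.7, 18.7 and 0 in siAcly Bemp and was listed at 0 in all siAcly Ut libraries, and Ehhadh had 277, 187 and 141 in siAcly Bemp and 97.5, 184 and 117 in siAcly Ut. Acaa2 had 2198, 1507 and 1053 in siAcly Bemp and 1248, 1269 and 1122 in siAcly Ut, and overlapped.

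Whether an inhibitor went with another change in siAcly than in siC cells was tested as an interaction. Across HC, SB and Bemp, 0 of 33 members and 0% of all genes were called by limma, with 0, 1 and 0 members at an unadjusted p under 0.05, beside 0.512%, 8.44% and 1.35% of all genes. The 1 member was Ppara for SB (log2 fold change 1.21, SE 0.48, adjusted p = 0.56), followed by Eci1 (-0.38) and Cpt1b. Cpt1b had 0, 28.4 and 10.0 in siAcly SB and 3.003, 0 and 0 in siC SB. For HC the smallest p-values were those of Ppara, Eci2 and Ehhadh, with log2 differences of 0.72, 0.33 and 0.73. Eci2 had 1395, 1313 and 1065 in siAcly HC and 1046, 1304 and 1185 in siAcly Ut. Ehhadh had 259, 143 and 146 in siAcly HC, 265, 224 and 104.4 in siC HC and 258, 195 and 219 in siC Ut. Its siAcly HC and siAcly Ut libraries overlapped. For Bemp they were those of Slc25a20, Acaa2 and Decr1, with log2 differences of 0.26, 0.45 and 0.34. Slc25a20 had 672, 562 and 498 in siAcly Bemp and 516, 489 and 565 in siAcly Ut, and 555, 628 and 550.3 in siC Bemp. Acaa2 had 1380, 1933 and 1482 in siC Bemp and 1602, 1764 and 1803 in siC Ut. Decr1 had 1036, 879 and 694 in siAcly Bemp, 771, 887 and 649 in siAcly Ut, 722, 797 and 863 in siC Bemp and 748, 923 and 1027 in siC Ut, and all 4 groups overlapped. Without the libraries labelled siC Ut 13 and siC Bemp 11 its log2 difference was 0.17.

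Hepatocyte genes differed widely between AML12 libraries, within groups as well. Apoa1 was 3722 to 8049 in 8 libraries of 7 groups and at most 187 in the other 16, and none of the siAcly Ut libraries was among the 8. Fabp1 had 2.14, 11.2 and 17.9 in siAcly Ut and 569, 49.0 and 109 in siC Ut, 520 to 1494 in the same 8 libraries and 0 to 109 in the others. Acot3, a peroxisomal thioesterase, had 3.28, 20.5 and 5.38 in siAcly Ut and 88.0, 61.8 and 81.7 in siC Ut (log2 fold change -3.21, SE 1.40, adjusted p = 0.224). The sum of 6 hepatocyte genes was 2937 to 10022 in siAcly Ut and 11826 to 25781 in siC Ut, and its part in the lower values of the members was not tested. Plin2 was 5418 to 6004 in the 7 libraries 81 to 87 and at most 4679 in the other 17 except 6313 in siAcly Ut 15, and had 6004, 3519 and 6313 in siAcly Ut and 3038, 3572 and 3668 in siC Ut (log2 fold change 0.58, SE 0.26, adjusted p = 0.24).

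**Figure D5:**
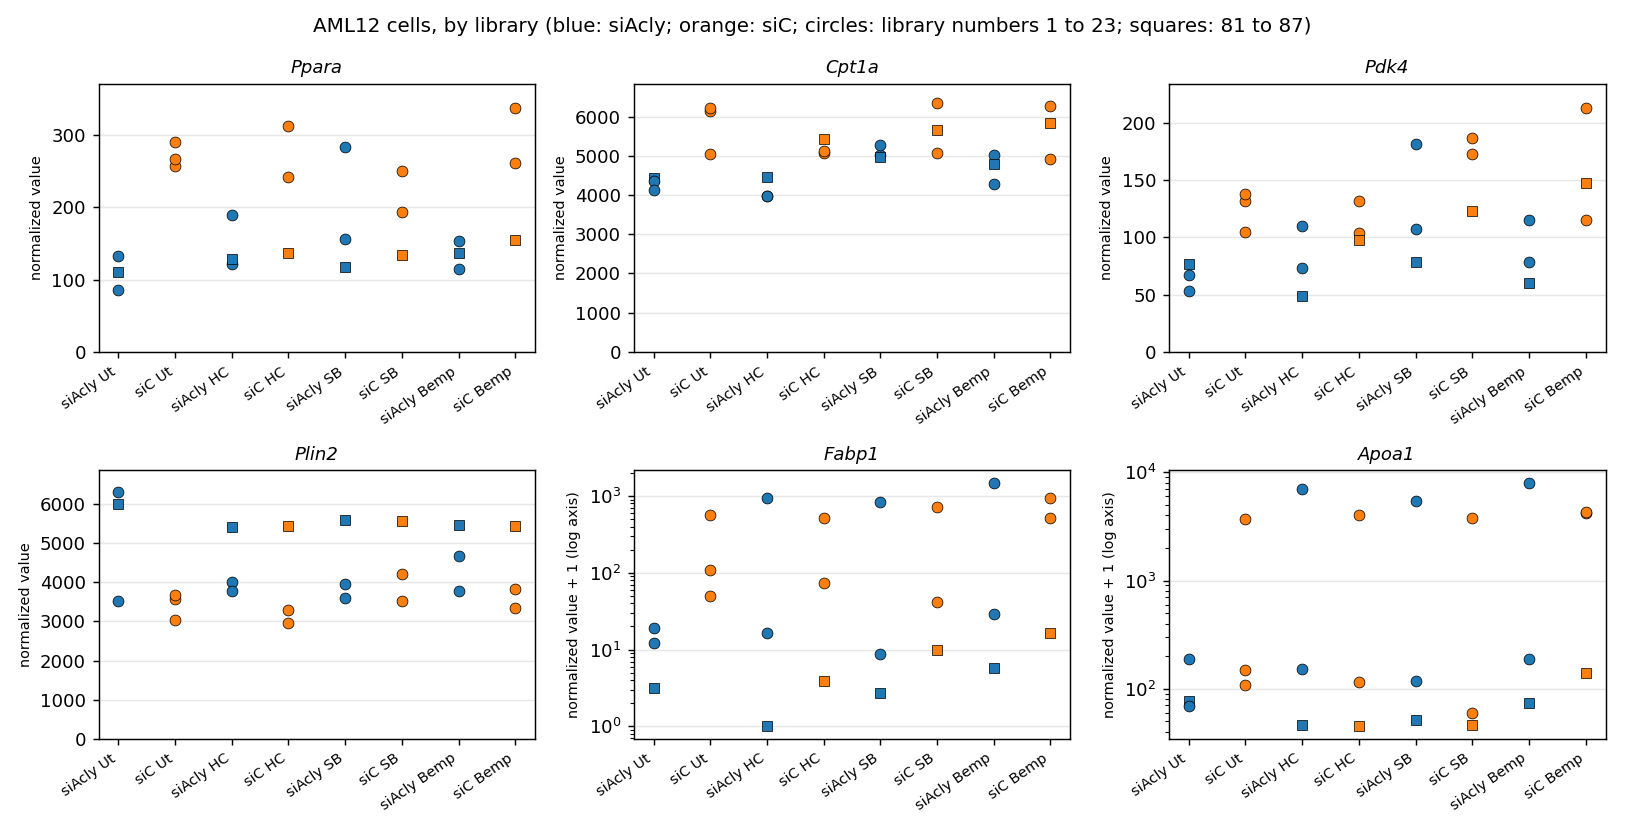
Normalized values of 5 members and of Apoa1 in AML12 cells (y axes, linear from 0, or value + 1 on a log axis for Fabp1 and Apoa1) by group, siAcly (blue) left of siC (orange), with circles for libraries 1 to 23 and squares for libraries 81 to 87. Ppara, Cpt1a and Pdk4 of siAcly Ut lie below siC Ut without overlap, the squares have Plin2 at 5418 to 6004, and Fabp1 is high where Apoa1 is high.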

How the data were processed

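RNA was sequenced from mouse gastrocnemius, soleus and liver and from AML12 cells (59 libraries in 17 groups, taken from the labels). The authors used FASTQ toolkit 1.0.0 for trimming and RNAseq Alignment 2.0.2 with the UCSC mm10 build for alignment, and scaled gene counts by median of ratios in the DESeq2 Illumina package 1.1. The deposited values are this normalized signal, 1 table per experiment, without raw counts. Low values were not whole multiples of a constant, so reads could not be recovered and no count model was run. The methods name a stranded mRNA ligation kit and the labels of liver and soleus an rRNA depletion kit.

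From these values, limma 3.58.1 in R 4.3.3 was fitted with a trend to log2(value + 1), all groups of a table in 1 fit, over genes with at least 10 in as many libraries as the smallest group of that table has (3 or 5). Benjamini-Hochberg adjustment ran over all tested genes. The fit was tested on simulated data with 200 changed genes. Exact two-sided permutation tests were added in liver and soleus. Depth was estimated by taking the commonest value under 2 in a library as 1 read, and limits how firmly low genes such as Cpt1b in AML12 cells can be read.

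The members and lists were chosen with earlier results of these data known. Named with values are Ppara in every table, up to 4 of the largest rises and falls among called members, the member of each step with the highest mean in that table, the 3 smallest p-values where none was called, and at most 2 rises and 2 falls of the other pathway genes. Other members named, such as Acads at 2 DPI, Acot3 and Fabp1, were chosen after their values were seen. Alternatives were pseudocounts of 0.5 and 5, no limit on low values, quantile or recomputed scaling, the number series as a covariate, only the groups compared, the threshold of the study, each library left out, a replicate block, and the libraries that stood apart left out (2 in AML12, 2 or 3 in gastrocnemius, chosen after seeing the data). Promoter windows are from RefSeq and gene positions from GENCODE vM21, both of GRCm38.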

Additional observations from a re-analysis of the deposited data

Results flagged for a closer look

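In liver and soleus, 142 groups of 5 libraries were checked for a library far from the others by Dixon's criterion, and 8 (5.63%) had one, where chance gives about 1 in 20. Liver STD 5 was low for Acadm, at 5734 with the nearest library at 6010, and for Eci2, at 1849.7 with the nearest at 2202, and this library also had the myofibre sum of 734. Liver HC 2 was high for Pdk4, at 604 with the nearest at 208. Soleus STD 1 was high for Echs1, at 2458 with the nearest at 2032. The same library was high for Fabp1, at 164 with the nearest at 44.5, for Cyp4a10, at 41.2 with the nearest at 14.2, and for Cyp4a14, at 59.04 with the nearest at 25.2, and it had the highest Alb of all soleus libraries, at 1087. Soleus HC 1 was high for Acaa1a, at 758 with the nearest at 503.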

How the results depend on the processing

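At siAcly Ut against siC Ut, 0 members called became 1 with quantile scaling, 1 with the number series as a covariate, 3 at the threshold of the study (unadjusted p up to 0.05 with a change of 1 or more on the log2 scale) and 0 to 1 with a library left out. Of all genes, 0.187% were called in the main fit, 0.252% with quantile scaling and 1.53% with the covariate. At CTX-HC 2 DPI against Control, 9 became 2 with no limit on low values, 1 with the number series as a covariate, 18 with only the groups compared, 18 without 2 or all 3 of the libraries that stood apart and 0 to 10 with a library left out. At CTX-HC 30 DPI against CTX-HC 2 DPI, 11 became 0 with only the groups compared, 24 without 2 or all 3 of the libraries that stood apart and 1 to 24 with a library left out. Here 9.74% of all genes became 0.164% with only the groups compared, and 36.9% and 39.1% without 2 and all 3 of those libraries. At CTX 30 DPI against CTX 2 DPI, 0 became 5 at the threshold of the study and 6 without 2 or all 3 of the libraries that stood apart. There 0.257% of all genes became 7.98% and 11.2% without 2 and all 3 of those libraries. The threshold of the study also gave 2 members at CTX 2 DPI against Control and 1 each at CTX-HC 30 DPI against Control, at CTX-HC 30 DPI against CTX 30 DPI, in soleus, and in the interaction of SB with siAcly. At that threshold the share of all genes was not computed, so no count there can be weighed. The causes were not tested. No value reversed in sign. Of the other values under an alternative, 1134 kept their side of the threshold, 68 lost it and 7 gained it.

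With the replicate number as a block, 0 members were called in liver and 0 in soleus. Same-numbered libraries correlated at 0.0243 to 0.0833 in liver and -0.112 to 0.403 in soleus. Only replicate 1 of soleus, at 0.403, correlated best with its own number. The numbers were not taken as pairs, and shared handling cannot be judged from these correlations. A count model was not run, since reads could not be recovered. Groups of 3 with wide spread limit the gastrocnemius and AML12 comparisons, and library numbers partly go with group.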
